A study of Rattus norvegicus with 32 samples.

Results

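The genes described here are a set of endothelial and VEGF signalling genes measured in the gastrocnemius muscle of the rat calf. They were chosen by name from the deposited expression table, not by their values. The rule named 10 genes, of which 9 were found among the 12901 genes of the table: Vegfa, Flt1, Kdr, Tek, Tie1, Cdh5, Esam, Egfl7 and Bcl6b. Pecam1 was not analysed here. The libraries came from male rats 20 weeks of age, chow-fed per the series title, and were made from the 3′ ends of transcripts. The control_RT group held 7 libraries of control rats at room temperature, and control_4C held 7 of control rats after 2 weeks at 4 °C. The KO_RT group held 9 libraries of UCP1 knockout rats at room temperature, and KO_4C held 9 of knockout rats after 2 weeks at 4 °C. UCP1 is the proton channel by which brown fat produces heat. The strain and the Ucp1 allele are not stated in the labels. Nor do they tell whether warm and cold libraries shared animals, so p-values measure the spread between these libraries.

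Capillaries in skeletal muscle are lined by endothelial cells, and muscle fibres and stromal cells secrete VEGF-A, which acts on those cells. VEGF-A binds the receptor tyrosine kinases FLT1 (VEGFR1) and KDR (VEGFR2). KDR carries most of the growth signal, whereas FLT1 binds the ligand tightly with weak kinase activity and also exists as a soluble decoy. TEK (TIE2) and TIE1 form the angiopoietin receptor pair. Cdh5 encodes VE-cadherin of the adherens junction, Esam a cell adhesion molecule of the tight junction, Egfl7 a protein secreted by endothelial cells, and Bcl6b a transcriptional repressor related to BCL6. The question put to the set was whether its members move together, as they would if they all followed capillary content. In bulk RNA, fewer endothelial cells and less RNA per endothelial cell cannot be told apart.

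Promoters of 5 of the 9 members were found in the RefSeq table of build GRCr8. Upstream stretches of 250 bases are shown for the VEGF receptor members Flt1 and Kdr, and for 1 of the 2 start sites listed for their ligand. All were read 5′ to 3′ on the + strand, and the 3′ tags do not show which start site was used. Capitals mark matches to 5 motifs searched on both strands over the whole promoter of 300 bases, 50 of them after the start site: ACGTG (hypoxia response core), CCGGAA (ETS core), AAGGTCA (half-site of oestrogen-related receptors), GTAAACA (forkhead core) and CAGCTG (an E-box).
Flt1, chr12:12333180-12333429: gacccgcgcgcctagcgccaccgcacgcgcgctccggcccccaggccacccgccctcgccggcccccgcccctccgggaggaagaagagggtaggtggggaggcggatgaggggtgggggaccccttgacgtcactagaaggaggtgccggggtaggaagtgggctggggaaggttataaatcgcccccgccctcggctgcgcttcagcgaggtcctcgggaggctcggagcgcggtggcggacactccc
Kdr, chr14:32571813-32572062: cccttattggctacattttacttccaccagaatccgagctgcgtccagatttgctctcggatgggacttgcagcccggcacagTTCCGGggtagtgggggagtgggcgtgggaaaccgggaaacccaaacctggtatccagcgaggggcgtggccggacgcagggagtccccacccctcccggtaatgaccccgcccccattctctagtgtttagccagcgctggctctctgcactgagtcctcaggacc
Vegfa, chr9:22460028-22460277: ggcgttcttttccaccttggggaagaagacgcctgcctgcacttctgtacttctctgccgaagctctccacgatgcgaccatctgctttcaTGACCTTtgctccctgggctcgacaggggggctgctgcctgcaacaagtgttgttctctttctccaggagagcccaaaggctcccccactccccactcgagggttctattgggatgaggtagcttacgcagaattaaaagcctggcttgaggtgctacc
The Kdr stretch held the ETS core on the opposite strand at position -167 from the start site, and a second match lay at 33 after it. The Vegfa stretch held the AAGGTCA letters on the opposite strand at -159. No match to the 5 motifs lay in the Flt1 promoter or at the other Vegfa start site listed. The promoter of that other site begins at chr9:22452604, so the Vegfa stretch shown is the downstream one. Of the 33469 promoters of the table, 14.95% held CCGGAA, 4.61% held AAGGTCA, 19.25% held ACGTG, 3.78% held GTAAACA and 15.06% held CAGCTG. A match describes the letters only.

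Library totals ran from 7275508 to 25846976 counts, and every member passed the filter on low counts. Levels are given as CPM, counts scaled to library size, with the SD between libraries. The summed CPM of 10 skeletal muscle fibre markers lay between 114879 and 210654 in every library. An index, named the loss index here, was the mean log2 CPM over 75 genes that were low in KO10. Whether a low index reflects loss of RNA was not tested. Libraries KO8 and KO10 and control_RT replicates 2 and 3 were the 4 lowest in it, and were left out together in one alternative. The index ran from 2.07 to 4.12 in control_RT and from 4.70 to 5.04 in control_4C, without overlap. In KO_RT it was 2.96 in KO8, 1.93 in KO10 and 4.49 to 5.06 in the other 7, and in KO_4C it ran from 4.44 to 5.16. What the index measures and cold therefore cannot be told apart in control rats. KO10 is low in this index by construction. Control_RT replicate 3, at 2.75, lay close to the next library of its group, at 3.11.

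**Figure D1:**
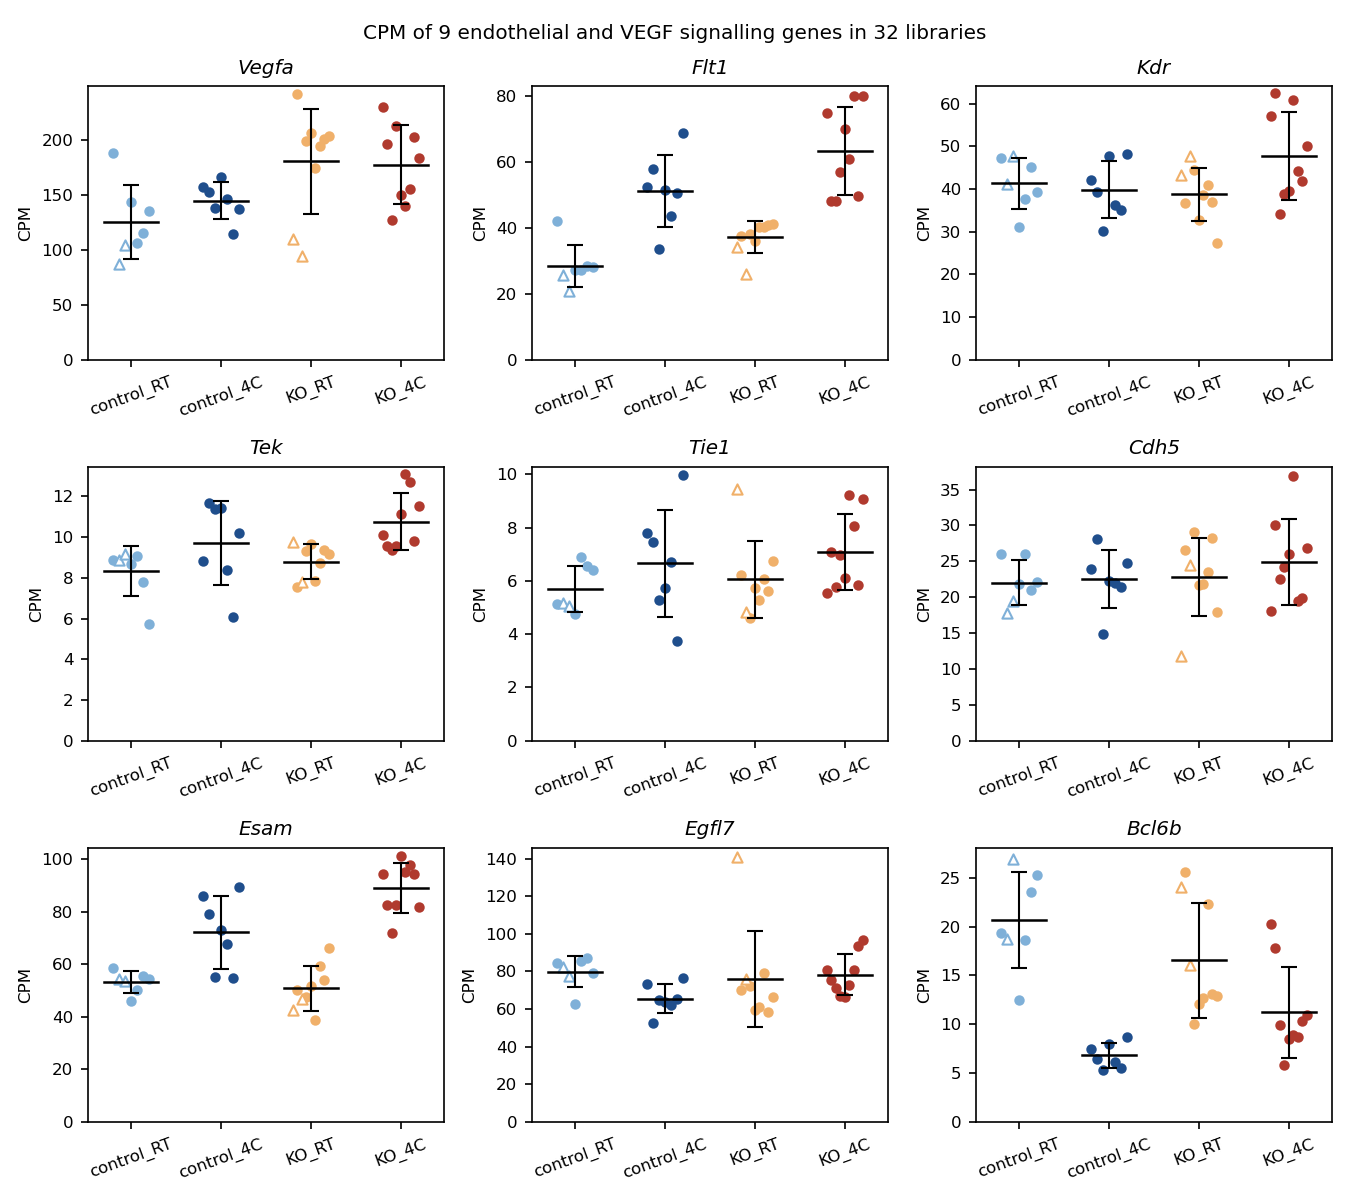
CPM of each member in every library (points) with the group mean and SD (black), by group; open triangles are the 4 lowest-index libraries. In the control_4C group the 7 Bcl6b values sit between 5.30 and 8.68, all under the lowest control_RT value of 12.5, while the 4 Cdh5 groups overlap.

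Cold raised Flt1 and Esam in both genotypes and lowered Bcl6b in control rats, while the other 6 members did not pass the test in either genotype. In control rats 3 of the 9 members were called, 2 higher and 1 lower, at an adjusted p under 0.05 by edgeR's quasi-likelihood test; 20.7% of all 11594 genes tested were called, 12.4% higher and 8.28% lower. In knockout rats 2 of the 9 were called, both higher, where 13.8% of all genes were called, 7.49% higher and 6.28% lower. The median log2 change over the 9 members was 0.20 in control rats, beside 0.03 over all genes tested, and 0.24 in knockout rats, beside 0.01. The set thus held members that rose, fell and did not pass the test under the same cold exposure.

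Vegfa, the ligand, ranged in control_RT from 86.8 to 188 CPM with a median of 115, and in control_4C from 114 to 166 with a median of 146. In KO_RT it ranged from 94.3 to 241 with a median of 199, and in KO_4C from 128 to 229 with a median of 184. The ranges of the warm and cold groups overlapped in both genotypes. The cold change was 0.20 ± 0.17 (log2, SE; 95% interval -0.14 to 0.55) in control rats, with an edgeR adjusted p of 0.427. In knockout rats it was -0.02 ± 0.15 (-0.33 to 0.28), with an edgeR adjusted p of 0.938. With the loss index as a covariate the control value turned to -0.43 and was not called.

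Flt1, the high-affinity VEGF-A receptor, ran from 21.0 to 41.9 CPM in control_RT with a median of 27.3, and from 33.7 to 68.7 in control_4C with a median of 51.5. In KO_RT it ran from 25.9 to 41.2 with a median of 38.2, and in KO_4C from 48.2 to 80.0 with a median of 60.7. All 9 KO_4C libraries lay above every KO_RT library, and 6 of 7 control_4C libraries lay above every control_RT library. The rise was 1.80-fold in control rats (log2 0.84 ± 0.15 SE, edgeR adjusted p = 1.36e-04). It was 1.70-fold in knockout rats (0.77 ± 0.13, edgeR adjusted p = 5.80e-05). With the loss index as a covariate the control value was 0.53 and its call ended (edgeR adjusted p = 0.0712).

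Kdr, the main signalling receptor, ranged from 31.2 to 47.7 CPM in control_RT with a median of 41.1, and from 30.2 to 48.1 in control_4C with a median of 39.3. In KO_RT it ranged from 27.3 to 47.8 (median 38.5) and in KO_4C from 34.3 to 62.4 (median 44.2). The groups overlapped in both genotypes. The cold change was -0.05 ± 0.13 in control rats (95% interval -0.33 to 0.22, edgeR adjusted p = 0.816). In knockout rats it was 0.30 ± 0.12 (0.06 to 0.54, edgeR adjusted p = 0.0834), and 8 of 9 KO_4C libraries lay above the KO_RT mean. Without KO_4C replicate 3 the knockout value was 0.35 (edgeR adjusted p = 0.0394), and without the 4 lowest-index libraries it was 0.37 (0.0476).

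Tek, the angiopoietin receptor, averaged 8.31 ± 1.23 CPM in the 7 warm and 9.71 ± 2.07 in the 7 cold control libraries, and 8.79 ± 0.86 in the 9 warm and 10.8 ± 1.42 in the 9 cold knockout libraries (SD). All 9 KO_4C libraries lay above the KO_RT mean, and 6 of them above every KO_RT library. The cold change was 0.23 ± 0.13 in control rats (edgeR adjusted p = 0.236) and 0.30 ± 0.12 in knockout rats (edgeR adjusted p = 0.0856). Tie1, its partner, had library values from 3.73 to 9.96 CPM. Its cold change was 0.23 ± 0.18 in control rats (edgeR adjusted p = 0.380) and 0.24 ± 0.16 in knockout rats (edgeR adjusted p = 0.338). Neither receptor passed the test in either genotype.

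Cdh5, the adherens junction gene, averaged 22.0 ± 3.08 CPM in warm and 22.5 ± 4.04 in cold control libraries, and 22.8 ± 5.41 in warm and 24.9 ± 5.94 in cold knockout libraries. Its 4 groups overlapped. The cold change was 0.03 ± 0.16 in control rats, with a 95% interval of -0.30 to 0.35 (edgeR adjusted p = 0.926). It was 0.13 ± 0.14 in knockout rats, with an interval of -0.16 to 0.41 (edgeR adjusted p = 0.605).

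Esam, the other junction gene, ran in control_RT from 46.0 to 58.5 CPM (median 54.3) and in control_4C from 54.9 to 89.7 (median 73.0). In KO_RT it ran from 38.7 to 66.4 (median 50.0) and in KO_4C from 72.1 to 101 (median 94.3). All 9 KO_4C libraries lay above every KO_RT library, and 5 of 7 control_4C libraries above every control_RT library. The rise was 1.75-fold in knockout rats (0.81 ± 0.10, edgeR adjusted p = 5.85e-07) and 1.36-fold in control rats (0.44 ± 0.11, edgeR adjusted p = 0.00419). With the loss index as a covariate the control value was 0.33 and its call ended (edgeR adjusted p = 0.217).

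Egfl7 ran from 62.5 to 87.1 CPM in control_RT and from 52.4 to 76.5 in control_4C, with medians of 82.3 and 64.5. All 7 control_4C libraries lay below the control_RT mean, and the ranges overlapped. The change was -0.29 ± 0.14 in control rats (edgeR adjusted p = 0.137). It was past the threshold without KO8 (-0.29, edgeR adjusted p = 0.0232), without the 4 lowest-index libraries (-0.30, 0.0455) and in a fit of the compared groups alone (-0.31, 0.0245), while the loss index as a covariate turned it to 0.02. In knockout rats it ran from 58.1 to 141 in KO_RT and from 66.4 to 96.9 in KO_4C, a change of 0.04 ± 0.12 (edgeR adjusted p = 0.852). KO8 held the value of 141 and also the highest summed CPM of 7 adipocyte markers, 618 against at most 275 in the other KO_RT libraries. The part of those cells in the Egfl7 value was not tested.

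Bcl6b, the transcriptional repressor, was the member with the largest cold change in control rats. It ran from 12.5 to 27.0 CPM in control_RT (median 19.4) and from 5.30 to 8.68 in control_4C (median 6.48), so that the groups did not overlap. The control level fell by 1.61 ± 0.24 on the log2 scale, to 0.33 of the warm level (edgeR adjusted p = 2.25e-05), and with the loss index as a covariate it was at -1.42 and still called (0.00891). In knockout rats it ran from 9.96 to 25.6 (median 13.1) in KO_RT and from 5.77 to 20.2 (median 9.92) in KO_4C, and the groups overlapped. The knockout change was -0.55 ± 0.20 and was not called by edgeR (adjusted p = 0.0642), though DESeq2 called it (-0.57, adjusted p = 0.0336). Leaving out any 1 of 8 single libraries took it past the threshold, with values from -0.72 to -0.57 and edgeR adjusted p from 0.0101 to 0.0491. These were control_RT replicate 4, KO11, KO13, KO14, KO16, KO17 and KO_4C replicates 1 and 2. The reference annotation places a noncoding gene over Bcl6b and over Tie1, 2 noncoding genes and 1 pseudogene over Flt1, and Mir126a, Mir126b and Agpat2 over Egfl7. The counting strand is not stated, so reads of these overlapping genes cannot be told apart.

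**Figure D2:**
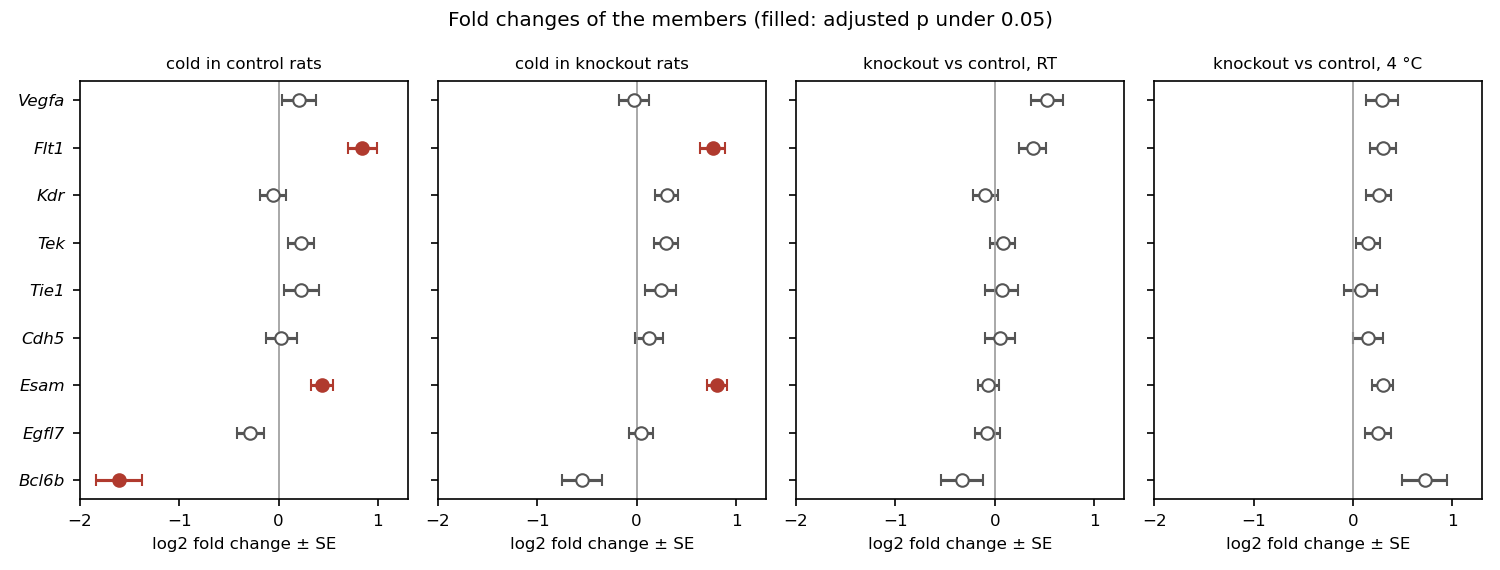
Log2 fold change of each member (points) with its SE (bars) in 4 contrasts; filled points have an edgeR adjusted p under 0.05. Flt1 and Esam are filled in both cold contrasts and Bcl6b in control rats at -1.61, and no member is filled between the genotypes.

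No member passed the test between knockout and control rats. At room temperature 0 of 9 members were called by edgeR, where 2.61% of all genes tested were called; 2 had an unadjusted p under 0.05, and DESeq2 called 1. Vegfa was 1.44-fold higher in KO_RT than in control_RT (0.52 ± 0.16, edgeR adjusted p = 0.0680; DESeq2 0.52, adjusted p = 0.0338). Within KO_RT, KO8 (110 CPM) and KO10 (94.3 CPM) lay below the other 7 libraries, which ran from 174 to 241. Without the 4 lowest-index libraries, KO_RT averaged 203 ± 20.0 CPM (SD, n = 7) and control_RT 138 ± 32.1 (n = 5). The edgeR difference was then 0.54 (adjusted p = 0.00903). Single omissions of control_RT replicate 1 (0.63, edgeR adjusted p = 0.0171), KO8 (0.57, 0.0182) or KO10 (0.59, 0.00851) also took it past the threshold. The loss index of every control_RT library lay below that of those 7 KO_RT libraries, and with the index as a covariate the Vegfa difference was 0.091 (edgeR adjusted p = 0.792).

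Flt1 differed at room temperature by 0.38 ± 0.14 (edgeR adjusted p = 0.127), with 8 of 9 KO_RT libraries above the control_RT mean. Without control_RT replicate 1 the Flt1 value was 0.49 (edgeR adjusted p = 0.0308), and without KO10 it was 0.41 (0.0491). With the loss index as a covariate it was 0.18 (0.647). The other 7 members lay between -0.33 (Bcl6b) and 0.08 (Tek).

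At 4 °C 0 of 9 members were called by edgeR, where 0.0518% of all genes tested were called; 4 had an unadjusted p under 0.05, and DESeq2 called 1. All 9 members had a positive difference, from 0.08 (Tie1) to 0.72 (Bcl6b), with a median of 0.26 beside 0.02 over all genes tested. Among control_4C libraries, replicate 3 held the lowest Cdh5 value (14.9 CPM) and replicate 6 the lowest of Esam (54.9) and Tie1 (3.73). Both were among 3 libraries set apart as rich in intestinal transcripts, a trait for which no values are given here. Without those 3 the Tie1 difference turned negative. Bcl6b was at 0.72 ± 0.22 (edgeR adjusted p = 0.0864; DESeq2 0.71, adjusted p = 0.0408), and 7 of 9 KO_4C libraries lay above every control_4C library. Esam was at 0.30 ± 0.10 (edgeR adjusted p = 0.130), Flt1 at 0.30 ± 0.14 (0.271) and Kdr at 0.26 ± 0.13 (0.328). The cold and genotype contrasts share libraries, so these values are not independent of those above.

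The cold responses of the genotypes were compared by the interaction, the knockout response minus the control response. By edgeR 0 of 9 members were called, where 0.0259% of all genes tested were called; 2 had an unadjusted p under 0.05 and DESeq2 called 0. Bcl6b was at 1.05 ± 0.31 (95% interval 0.42 to 1.68, edgeR adjusted p = 0.139) and Esam at 0.37 ± 0.15 (0.07 to 0.67, 0.271). The interval of Flt1 ran from -0.47 to 0.32 around -0.08. Without the 4 lowest-index libraries Egfl7 passed the threshold (0.53, edgeR adjusted p = 0.0310).

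To ask whether members followed a common endothelial level, each was set against Cdh5 in the same library, and the difference of log2 CPM was compared between groups by a two-sided exact permutation test over 8 members and 4 contrasts, 32 tests in all, with Benjamini-Hochberg adjustment; 3 of them passed. Flt1 rose against Cdh5 by 0.82 in control rats (exact permutation, adjusted p = 0.00932), and Bcl6b fell by 1.59 (-1.59, adjusted p = 0.00932). Esam rose against Cdh5 by 0.68 in knockout rats (exact permutation, adjusted p = 0.0417). The Esam call ended on omission of any 1 of 12 libraries (exact permutation, adjusted p from 0.0513 to 0.0625): KO9, KO11, KO13, KO14, KO15, KO16 and KO_4C replicates 1, 3, 4, 5, 7 and 8. The same members in the other genotype did not pass, with Flt1 at 0.61 (exact permutation, adjusted p = 0.0908) and Bcl6b at -0.71 (0.208) in knockout rats and Esam at 0.40 (0.0513) in control rats. With Tie1 in place of Cdh5, the Flt1 control value was 0.66 (exact permutation, adjusted p = 0.0513).

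A second reference, chosen after seeing the data, was the mean log2 CPM of 39 other endothelial markers, none of them a member. The list includes Col4a1, Col4a2, Ltbp4, Adgre5, Cd34, Icam1 and Vcam1. Whether each marker is particular to endothelium in this muscle was not tested. It averaged 3.61 ± 0.05 in warm and 3.76 ± 0.17 in cold control libraries, and 3.61 ± 0.12 in warm and 3.92 ± 0.06 in cold knockout libraries (log2 CPM, SD between libraries). The lowest KO_4C library, at 3.81, lay above the highest KO_RT library, at 3.75. Against this mean 8 of 36 tests passed. In control rats Flt1 rose by 0.69 (exact permutation, adjusted p = 0.0105) and Esam by 0.28 (0.0200), while Egfl7 changed by -0.43 (0.0105) and Bcl6b by -1.71 (0.0105). In knockout rats Flt1 rose by 0.44 (exact permutation, adjusted p = 0.0200) and Esam by 0.51 (0.00592), and Bcl6b changed by -0.89 (0.0209). Vegfa, Kdr, Tek, Tie1 and Cdh5 did not pass in either cold contrast, with values from -0.30 to 0.09, and Egfl7 was at -0.23 in knockout rats (exact permutation, adjusted p = 0.386). Without the 4 lowest-index libraries the knockout values of Flt1 (0.36, exact permutation, adjusted p = 0.0582) and Bcl6b (-0.79, 0.0542) no longer passed.

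Flt1 was also higher against the endothelial mean in KO_RT than in control_RT (0.40, exact permutation, adjusted p = 0.0326). That call ended on omission of any 1 of 13 libraries (exact permutation, adjusted p from 0.0511 to 0.0863): control_RT replicates 2 to 7, KO9, KO11, KO13, KO14, KO15, KO16 and KO17. It also ended without the 4 lowest-index libraries (0.38, exact permutation, adjusted p = 0.0511).

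**Figure D3:**
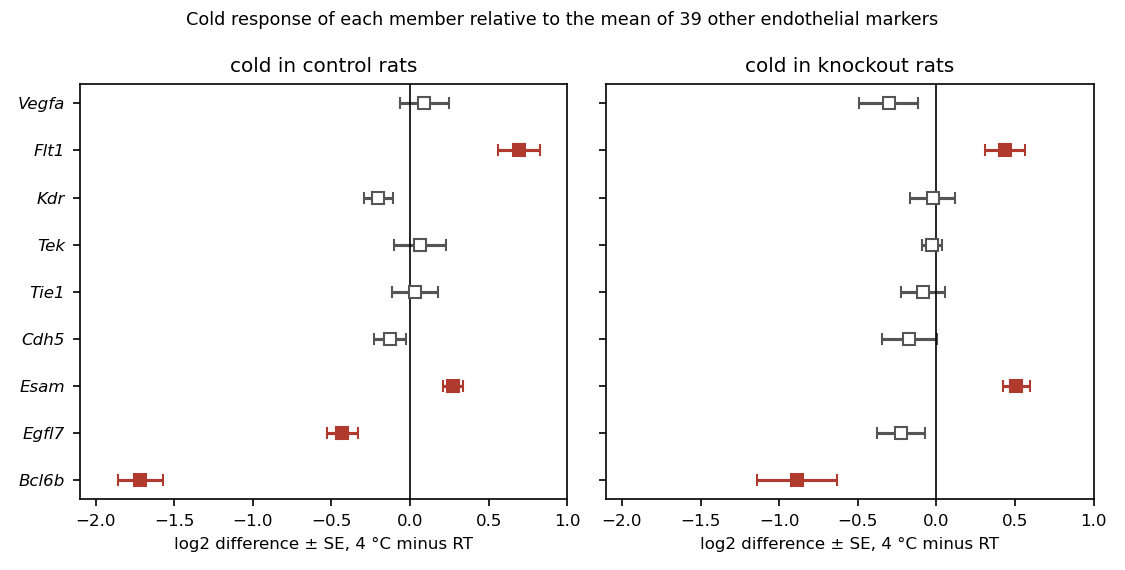
Cold change of each member relative to the mean of 39 other endothelial markers (squares, log2 difference of group means, 4 °C minus room temperature; bars, SE of that difference from the group SDs); filled squares have an exact permutation adjusted p under 0.05. Flt1 and Esam lie right of 0 and Bcl6b left of it in both genotypes, while Tek and Tie1 lie within 0.09 of 0.

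Members were also followed from library to library within groups, as deviations of log2 CPM from the group mean over 32 libraries, with permutation within groups (100000 resamples). None of the 8 other members was correlated with Cdh5 past Benjamini-Hochberg adjustment; 1 had an unadjusted p under 0.05. Pearson r ran from -0.47 for Egfl7 (permutation, adjusted p = 0.301; Spearman rho -0.20) to 0.30 for Kdr (0.417; rho 0.36). The Egfl7 value became -0.13 without the 2 libraries farthest from the median of Cdh5, so it rests on those libraries. Within groups r of Egfl7 with Cdh5 was 0.16 in warm and -0.15 in cold control libraries, and -0.74 in warm and -0.29 in cold knockout libraries.

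Over the 36 pairs of members, r was positive in 27 with a median of 0.20, and 0 pairs passed adjustment on r; 8 had an unadjusted p under 0.05, 7 positive and 1 negative. On Spearman rho 3 pairs passed: Kdr with Bcl6b (r 0.56, rho 0.62, permutation adjusted p of rho 0.0144), Flt1 with Esam (r 0.50, rho 0.59, 0.0202) and Egfl7 with Bcl6b (r 0.50, rho 0.54, 0.0342). Without the 2 libraries farthest from the median of the first gene, these r values were 0.59, 0.41 and 0.47. Depth and tissue makeup, which also vary between libraries, were not modelled in these r values.

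Against the mean of the 39 other endothelial markers only Esam passed among 9 members (r 0.69, permutation adjusted p = 0.00468; rho 0.62, permutation adjusted p = 0.0111). Its r was 0.69 without the 2 farthest libraries and 0.72 without the 4 lowest-index ones, and within groups it was 0.63 in warm and 0.94 in cold control libraries, and 0.62 in warm and 0.03 in cold knockout libraries. Cdh5 had an r of 0.29 with that mean (permutation adjusted p = 0.316). The 10 genes whose deviations were most like those of Cdh5, among 6944 with a mean of at least 5 CPM, were Rhoa (r 0.80), Tspan2 (0.79), Abcc9 (0.79), Prrc2a, Sh3bp4, Nup88, Dnaaf5, Tmem182, Ptges3 and Plekhh3. None of these was on an endothelial list, and Abcc9 was on the list of smooth muscle and pericyte markers. The median r with Cdh5 was 0.09 over the other endothelial markers, 0.30 over the Notch genes and 0.24 over the receptors. It was 0.18 over the endothelial transcription factors and 0.06 over the ligands, beside 0.01 over all genes tested. Lists that are not endothelial gave 0.27 (erythroid), 0.12 (fibroblast), 0.09 (smooth muscle and pericyte) and 0.09 (hypoxia). Others gave -0.02 (angiostatic), -0.05 (muscle fibre), -0.09 (macrophage), -0.28 (lymphatic) and -0.42 (adipocyte).

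**Figure D4:**
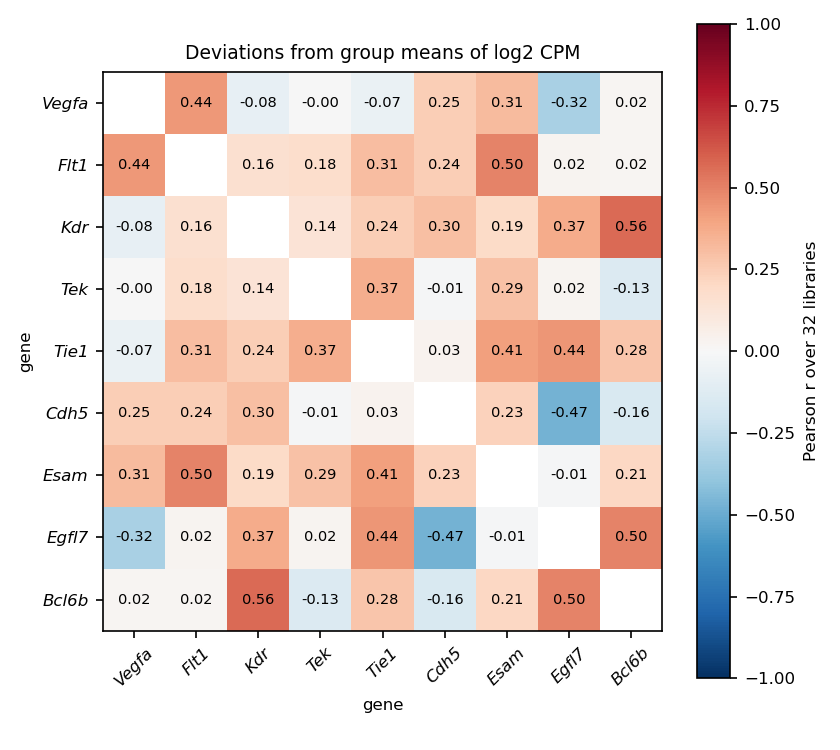
Pearson r between members (rows and columns) of deviations from group means of log2 CPM over 32 libraries; the colour scale runs from -1 to 1. The highest value is 0.56 for Kdr with Bcl6b and the lowest -0.47 for Cdh5 with Egfl7.

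Counts called in the lists below stand beside these shares of all genes tested. With cold, 12.4% were called higher and 8.28% lower in control rats, and 7.49% higher and 6.28% lower in knockout rats. Among 10 ligands of the VEGF, angiopoietin and apelin systems, cold raised 1 and lowered 1 in control rats and lowered 1 in knockout rats. These ligand counts lay near the shares over all genes. Leaving out 1 library at a time gave 1 to 3 calls in control rats and 1 to 2 in knockout rats. Apln, which encodes the peptide apelin, fell by 1.29 ± 0.28 on the log2 scale in control rats (edgeR adjusted p = 0.00106) and by 0.98 ± 0.25 in knockout rats (0.00573). Angpt2, the context-dependent TEK ligand, rose in control rats by 0.62 ± 0.21 (edgeR adjusted p = 0.0314). That call ended without the 4 lowest-index libraries (0.51, 0.129) and on omission of any 1 of control_RT replicates 2, 3 and 6 and control_4C replicates 1, 4, 5 and 7 (edgeR adjusted p from 0.0502 to 0.0722). Vegfb (0.13 and -0.24 in control and knockout rats), Vegfc (0.02 and 0.32), Pgf (-0.37 and 0.55) and Angpt1 (-0.02 and -0.66) were not called.

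Of 11 receptors and coreceptors 1 rose in control rats and 4 rose in knockout rats, and none fell. The control count lay near the 12.4% of all genes called higher there. Omission of 1 library gave 1 to 2 calls in control rats and 2 to 4 in knockout rats, with 2 on omission of any 1 of 14 libraries, KO8 and KO10 among them. Ramp2, a coreceptor of the adrenomedullin receptor, rose by 0.44 ± 0.13 in control rats (edgeR adjusted p = 0.0119) and by 0.33 ± 0.11 in knockout rats (0.0432). The knockout call ended on omission of any 1 of 21 libraries, KO8 among them (0.25, 0.0928). Eng (endoglin) rose in knockout rats by 0.61 ± 0.12 (edgeR adjusted p = 5.53e-04) and Acvrl1 (ALK1), its signalling partner, by 0.47 ± 0.12 (0.00796). Ptprb, the endothelial phosphatase that acts on TEK, rose there by 0.35 ± 0.12 (0.0433), a call that ended on omission of any 1 of 22 libraries, KO8 among them (0.30, 0.0919). Nrp1 (-0.15 and 0.08) and Nrp2 (0.14 and 0.28), coreceptors of VEGF-A, were not called.

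Of 39 other endothelial markers 7 were called higher in control rats and 13 in knockout rats, and none was called lower in either. On omission of 1 library 5 to 10 and 10 to 14 were called. The median log2 change was 0.14 and 0.30. Some markers that were not called lay below 0 in control rats, among them Ecscr (-0.81, edgeR adjusted p = 0.0556), Nos3 (-0.31) and Emcn (-0.25). In knockout rats the same genes were at 0.03, 0.27 and 0.27. Gpihbp1, which anchors lipoprotein lipase on capillary endothelium, rose by 0.66 ± 0.20 in control rats (edgeR adjusted p = 0.0166; 0.51 and 0.0665 without control_4C replicate 7) and by 1.41 ± 0.18 in knockout rats (1.17e-06). Adgrf5, an adhesion receptor of endothelium, rose by 0.64 ± 0.11 (edgeR adjusted p = 2.01e-04) and 0.78 ± 0.10 (1.17e-06). Vwf, the von Willebrand factor gene, rose by 0.57 ± 0.16 (0.00884) and 0.53 ± 0.14 (0.00755). Podxl (podocalyxin) rose in knockout rats by 0.90 ± 0.13 (9.11e-06). The interaction called none of the 39 by edgeR.

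**Figure D5:**
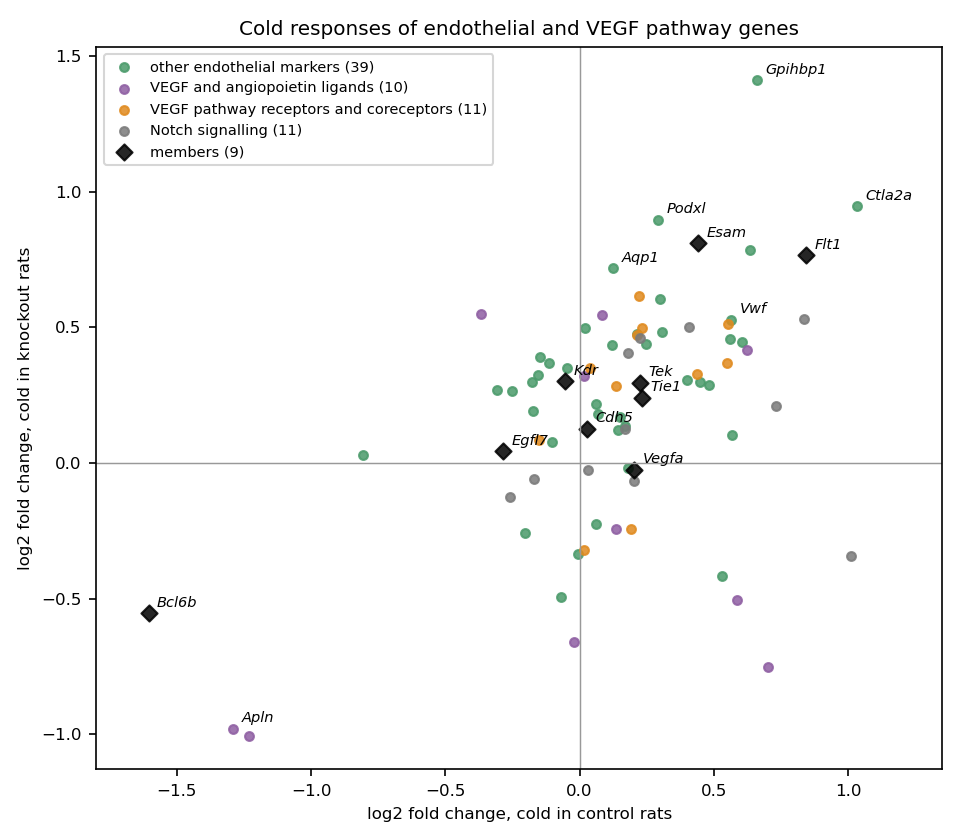
Log2 fold change with cold in control rats (horizontal axis) against that in knockout rats (vertical axis) for the members (diamonds) and 4 lists of pathway genes (circles). Flt1 and Esam lie among the raised markers at upper right, with Gpihbp1 highest at 1.41 on the vertical axis, and Bcl6b and Apln lie at lower left.

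Among 16 endothelial transcription factors 3 rose in control rats and 4 rose and 1 fell in knockout rats. The gene that fell was Mef2c (-0.30 ± 0.10, edgeR adjusted p = 0.0434), and which cells held its RNA was not tested. With 1 library left out, 2 to 4 were called in control rats and 2 to 7 in knockout rats, where the count was 2 without KO_4C replicate 7 and 3 without any 1 of KO_4C replicates 2, 5, 8 and 9. Meox2, a homeobox gene of muscle and capillary endothelium, rose by 0.54 ± 0.16 in control rats (edgeR adjusted p = 0.0139) and 0.48 ± 0.14 in knockout rats (0.0178; 0.41 and 0.0505 without KO_4C replicate 7). Tcf15, its heterodimer partner in capillary endothelium, rose in knockout rats by 0.68 ± 0.13 (4.58e-04). Of 11 Notch genes 2 rose in control rats, Jag1 by 0.73 ± 0.18 (edgeR adjusted p = 0.00340) and Hes1 by 0.84 ± 0.22 (0.00682), and edgeR called 0 in knockout rats (0 to 2 on omission of 1 library).

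Of 20 hypoxia genes and known regulators of Vegfa 5 rose and 3 fell in control rats, and 3 rose and 1 fell in knockout rats. The control count of 8 became 4 without control_RT replicate 2 and 5 without control_4C replicate 6, with a highest value of 11 over the single omissions. The knockout count was 4 to 5. Esrrg, an oestrogen-related receptor, rose by 0.69 ± 0.13 and 0.70 ± 0.11 in control and knockout rats (edgeR adjusted p = 2.75e-04 and 3.96e-05). Egln1, a prolyl hydroxylase that marks HIF for breakdown, fell by 0.83 ± 0.25 (adjusted p = 0.0175; -0.73 and 0.0530 without control_RT replicate 2) and 0.84 ± 0.23 (0.00947) in the same order. Hif1a (0.22 and -0.05), Epas1 (-0.08 and -0.19) and Ppargc1a (-0.05 and -0.55) were not called, and Esrra rose in control rats by 0.36 ± 0.12 (edgeR adjusted p = 0.0261). The Esrra call ended on omission of any 1 of control_RT replicates 2, 3 and 6 and control_4C replicates 3, 4 and 6 (edgeR adjusted p from 0.0537 to 0.0763). Also in control rats, Zfp36 (0.95, edgeR adjusted p = 4.94e-04) and Slc2a1 (0.94, 0.0213) rose, and Hif1an (-0.67, 0.0364) and P4ha1 (-0.33, 0.0393) fell. None of them was called in knockout rats. Bnip3, a target of HIF, rose in control rats by 1.58 ± 0.32 (edgeR adjusted p = 7.71e-04) and was not called in knockout rats (0.33 ± 0.27, 0.466). It was the gene of the hypoxia list that was higher in knockout than in control rats at room temperature (1.17 ± 0.30, edgeR adjusted p = 0.0303), a call that ended on omission of any 1 of control_RT replicates 2, 3 and 5, KO9, KO13, KO16 and KO17 (adjusted p from 0.0628 to 0.0911). Of 11 genes of the angiostatic list 5 rose in control rats and 2 in knockout rats (5 and 0 to 3 on omission of 1 library). Serpinf1, which encodes the angiogenesis inhibitor PEDF, rose by 0.53 ± 0.15 in control rats (edgeR adjusted p = 0.0101). Without the 3 libraries set apart as rich in intestinal transcripts it was at 0.43 (edgeR adjusted p = 0.0747). The 5 include Thbs4 (thrombospondin 4, 1.58 ± 0.29, 3.94e-04), which is not established as angiostatic. With the loss index as a covariate the control calls of Apln, Angpt2, Ramp2, Gpihbp1, Meox2, Jag1, Hes1, Esrrg, Egln1, Esrra, Bnip3 and Thbs4 ended, and those of Vwf, Adgrf5 and Serpinf1 remained.

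Markers of other cells moved in the same contrasts. In control rats 6 of 12 macrophage markers, 5 of 12 smooth muscle and pericyte markers, 4 of 7 adipocyte markers, 4 of 5 erythroid markers, 2 of 7 fibroblast markers and 1 of 5 lymphatic markers rose. In knockout rats the counts were 6, 1, 1, 2, 0 and 2 of the same lists, and 1 fibroblast marker fell. The adipocyte call in knockout rats was Fabp4 (0.67 ± 0.13, edgeR adjusted p = 3.10e-04). Adipoq (0.52), Plin1 (0.28), Cfd (0.28), Cidec (0.12), Retn (-0.11) and Lep (-0.33) were not called there. Fabp4 was also called in control rats (1.16), and which cells held its RNA was not tested. Of 10 muscle fibre markers 3 fell and 1 rose in each genotype. These counts moved with single libraries: in control rats to 3 smooth muscle markers on omission of any 1 of 17 libraries, 1 fibroblast marker on that of any 1 of 7 and 2 erythroid markers without control_4C replicate 2. In knockout rats they moved to 4 adipocyte markers without KO8, 3 smooth muscle markers without KO17, 2 fibroblast markers without KO10 or KO_4C replicate 2, 1 lymphatic marker without any 1 of 23 libraries, and 0 to 4 erythroid markers. The macrophage count was 5 to 7 in both genotypes. The summed CPM of the adipocyte markers ran from 151 to 194 in control_RT and from 244 to 407 in control_4C, without overlap, and that of the macrophage markers from 132 to 214 and from 194 to 313. In knockout rats the macrophage sum ran from 110 to 155 in KO_RT and from 160 to 299 in KO_4C. The part of these cells in the changes of the members was not tested.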

How the data were processed

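Raw counts of reads per gene were deposited by the authors. The authors also deposited normalised signal values, made by dividing each count by a size factor (0.523 to 2.06 across libraries). Per the labels, RNA was extracted with Trizol and sequenced from 3′ end libraries with 50 bp forward reads. Per the submitters' processing notes, R 3.4.3, DESeq2 1.18.1 and build Rnor_6.0 were used; the sources used here do not give the aligner or counter. The deposited counts held 0 odd values, so totals and CPM are as deposited and counts divided by 2 were an alternative. No column of per-sample values was left unused, and no pair of libraries agreed within sampling noise (lowest chi-square per degree of freedom 6.23). KO_RT libraries are named by their columns, since column and description numbers conflict.

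Counts were analysed with edgeR 4.0.16 in R 4.3.3: filterByExpr (minimum count 10; 11594 genes tested, 1307 not), TMM, 1 mean per group, and a robust quasi-likelihood F test over all 32 libraries, with Benjamini-Hochberg adjustment per contrast at 0.05. The SE is the absolute log2 change over the square root of F. Log2 CPM used a prior count of 2. Permutation tests were run on log2 CPM with purpose-written code in numpy 2.4.6, and scipy 1.17.1 gave the ranks for Spearman rho. DESeq2 1.42.0 was an alternative; others were RLE factors, no filter, the compared groups alone, the replicate block, a stricter threshold, the loss index as covariate, and omission of libraries. The scripts were tested on simulated data. The members, the gene lists, the 4 lowest-index libraries and the 3 set apart as rich in intestinal transcripts were chosen with earlier results of these data known. Named genes are all members and a selection from the up to 3 called genes of smallest p per list and contrast. Ptprb, Vwf, Egln1, Serpinf1, Slc2a1, Hif1an and P4ha1 were called but lay outside those 3, so they were named outside this rule. Genes within the rule that are not named include Ddit4, Spry1, Thbs2, Sparcl1 and Ctla2a. Hif1a, Epas1, Ppargc1a and Esrra were always looked up. Mef2c, and the ligands, coreceptors, endothelial markers and adipocyte markers that were not called, were named after their values were seen.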

Additional observations from a re-analysis of the deposited data

Results flagged for a closer look

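In 6 of the 36 combinations of member and group, 1 library lay far from the others by Dixon's criterion; chance marks about 1 in 20 groups. Flt1 was at 41.9 CPM in control_RT replicate 1, where the next library was at 28.5, and at 25.88 CPM in KO10, where the next was at 34.1. Tek was at 5.73 CPM in control_RT replicate 7, where the next was at 7.78. Tie1 was at 9.465 CPM in KO8, where the next was at 6.73. Egfl7 was at 62.53 CPM in control_RT replicate 4, where the next was at 77.5, and at 141.1 CPM in KO8, where the next was at 79.3.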

How the results depend on the processing

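Of the members' calls, Bcl6b with cold in control rats, and Flt1 and Esam with cold in knockout rats, kept their direction and their side of the threshold under every alternative run. The cause of each change below was not tested. Counts are genes called unless members are named. Under an adjusted p of 0.01 there were 1209 with cold in control rats, 799 with cold in knockout rats, 21 between genotypes at room temperature, 0 at 4 °C and 0 for the interaction. The 4 °C genotype count, 6 in the report (4 higher, 2 lower), was 121 with RLE factors (11 higher, 110 lower) and 81 with counts divided by 2. It was 3 without the filter (1 for the interaction), and 0 in a fit of the compared groups alone, where room temperature also gave 0. It was also 0 without control_4C replicates 3 and 6 and control_RT replicate 4, set apart as rich in intestinal transcripts. DESeq2 called 573 at room temperature, 432 at 4 °C and 106 for the interaction, with 1 member each in the first and second of these. Without the 4 lowest-index libraries there were 708 at room temperature and 288 for the interaction, with 1 member each, and 5 member tests passed relative to Cdh5. With the mean of the other endothelial markers as reference 8 tests and 1 correlation passed. The loss index as a covariate gave 326 with cold in control rats with 1 member, 1 at room temperature, 253 at 4 °C and 1 for the interaction.

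Signs turned only in values that were not called in the report, apart from Meox2 (-0.012) and Esrra (-0.014), which the loss index turned with cold in control rats. With that covariate Vegfa was at -0.43, Kdr 0.16, Cdh5 -0.11 and Egfl7 0.024 with cold in control rats; Kdr 0.032, Cdh5 -0.037 and Egfl7 0.097 between genotypes at room temperature; and Vegfa 0.24, Flt1 0.14 and Tie1 -0.028 in the interaction. Without the 4 libraries Cdh5 was at -0.066 with cold in control rats and Tie1 at -0.072 at room temperature. Without the 3 libraries set apart as rich in intestinal transcripts Tie1 was at -0.0905 at 4 °C and -0.12 in the interaction, and Cdh5 at -0.0039. In the correlations with Cdh5, Tie1 as reference gave -0.067 for Vegfa, 0.37 for Tek, 0.44 for Egfl7 and 0.28 for Bcl6b; the marker mean gave 0.24 for Tek, 0.058 for Egfl7 and 0.13 for Bcl6b; and omission of the 4 libraries gave -0.062 for Vegfa, 0.14 for Tek and 0.022 for Bcl6b.

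Leaving out each library in turn gave 80 to 792 genes at room temperature, 0 to 556 at 4 °C and 0 to 226 for the interaction, 0 to 2 members at room temperature, and 2 to 5 member tests relative to Cdh5. Values that changed sign ran from -0.13 to 0.0032 (Kdr) and -0.035 to 0.11 (Cdh5) with cold in control rats, and from -0.12 to 0.026 (Vegfa) and -0.012 to 0.19 (Egfl7) with cold in knockout rats. At room temperature they ran from -0.0080 to 0.11 (Cdh5), -0.011 to 0.091 (Tek) and -0.041 to 0.11 (Tie1), at 4 °C from -0.020 to 0.18 (Tie1), and in the interaction from -0.0059 to 0.14 (Tek) and -0.080 to 0.13 (Tie1). The r with Cdh5 ran from -0.12 to 0.081 for Tek, -0.069 to 0.36 for Tie1 and -0.24 to 0.00088 for Bcl6b.

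The replicate numbers of control rats did not pair libraries (r of deviations -0.22 to 0.19 between temperatures, with 1 of 7 best with its own number, and -0.07 to 0.22 between genotypes at 4 °C, with 3 of 7). With the replicate block 2339 genes and 3 members were called with cold in control rats, 4 genes for the interaction and 0 at 4 °C. No paired analysis was possible for cold in knockout rats or for genotype at room temperature because KO_RT columns carry no usable numbers. Pecam1 as a reference was not run. Depth as a limit on the members' tests was not tested.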
